A study of Mus musculus with 14 samples.

Results

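Complement and blood clotting factors are plasma proteins that the liver makes. The 37 genes described here, of 54446 genes in the deposited table, encode 17 of the complement system and 20 of coagulation and fibrinolysis, chosen by symbol. They hold 114 of the 137767 transcripts. Their messages were measured in purified C57BL/6 mouse hepatocytes by polyA-selected RNA sequencing in a study of Srsf1, a splicing factor of the SR protein family. Purified cells were labelled as hepatocytes in all 14 libraries, which form 6 groups. The hepatocyte knockouts (HKO) have the genotype srsf1f/f;albcre+/-, and their controls albcre+/-. Both were sampled on postnatal day 10 (P10) and again, in other libraries, at the age of 1 month, with 2 libraries per genotype and age. In the acute model, srsf1f/f animals received an AAV8 vector at 8 weeks of age and were sampled at 10 weeks, 2 weeks later. There, 3 libraries came from animals given iCre (acHKO) and 3 from animals given GFP, both expressed from the hepatocyte promoter TBG. All 8 libraries of the HKO experiment carry albumin-Cre, whose promoter is active in hepatocytes. Their controls are not described as carrying the floxed allele, so line and knockout cannot be told apart at those ages. Only acHKO animals received iCre, so iCre and loss of Srsf1 cannot be told apart in the acute model. Nothing says whether replicates are separate animals, and p-values then measure only the spread between these libraries.

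As background, complement is started by recognition molecules: mannose-binding lectins with the MASP proteases, or C1q with C1r and C1s. These proteases cut C4. In later steps C3, the central component, is cut, and the cleavage of C5 leads to a pore built from C5b, C6, C7, C8 and C9. Clotting is a chain of protease precursors that ends in thrombin, which turns fibrinogen into fibrin. Plasmin later dissolves the fibrin. Hepatocytes secrete nearly all of these proteins, and several rise or fall in the acute phase response.

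Fgg, Masp2, Masp1, Kng1, Mbl1 and C8a are annotated with forms that part at a single splice choice, and these are shown because the shares of the forms moved in the acute knockout. The stretches below are spliced transcript sequences from GENCODE M21 on GRCm38, written 5′ to 3′. Lower case marks bases that both forms share and capitals mark the bases after the choice. In Fgg, the fibrinogen gamma chain, the usual form splices into a short last exon, while the other form reads on into the last intron, which encodes the acidic gamma-prime tail.
Fgg-201: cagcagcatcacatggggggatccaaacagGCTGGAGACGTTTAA
Fgg-202: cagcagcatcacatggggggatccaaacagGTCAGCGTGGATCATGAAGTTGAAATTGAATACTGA
Both end at a stop codon. They lie on the plus strand at chr3:83014278-83014849 for Fgg-201, which spans an intron, and at chr3:83014278-83014343 for Fgg-202. The capitals differ over the whole coding end, 15 bases in Fgg-201 and 36 bases in Fgg-202.

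Masp2-201 encodes the full protease, and Masp2-202 ends early in an alternative last exon and lacks the protease domain (the protein known as MAp19 or sMAP).
Masp2-201: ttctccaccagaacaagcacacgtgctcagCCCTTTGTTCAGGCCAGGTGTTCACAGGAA
Masp2-202: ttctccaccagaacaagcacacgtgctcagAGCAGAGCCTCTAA
These lie on the plus strand at chr4:148603789-148605609 and chr4:148603789-148604269. Masp1-201 encodes MASP-1, and Masp1-203 joins the same shared exons to the single protease exon of MASP-3.
Masp1-201: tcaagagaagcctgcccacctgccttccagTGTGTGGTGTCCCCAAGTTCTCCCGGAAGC
Masp1-203: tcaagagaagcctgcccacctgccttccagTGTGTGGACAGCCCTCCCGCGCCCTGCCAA
These lie on the minus strand at chr16:23465136-23474903 and chr16:23470701-23474903. Kng1-201 reads on in its last exon and encodes high molecular weight kininogen, the form that carries prekallikrein and factor XI in plasma. Kng1-202 splices from the same base to another exon and encodes low molecular weight kininogen.
Kng1-201: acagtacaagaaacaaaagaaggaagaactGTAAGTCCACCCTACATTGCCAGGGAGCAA
Kng1-202: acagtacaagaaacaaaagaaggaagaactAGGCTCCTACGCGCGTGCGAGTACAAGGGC
These lie on the plus strand at chr16:23079022-23079081 and chr16:23079022-23081507.

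Mbl1 and C8a differ by the use of a splice site or an exon. Mbl1-201, annotated as a target of nonsense-mediated decay, uses a 5′ splice site 7 bases later than Mbl1-202, and capitals mark those bases.
Mbl1-201: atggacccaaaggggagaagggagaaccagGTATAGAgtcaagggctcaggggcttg
Mbl1-202: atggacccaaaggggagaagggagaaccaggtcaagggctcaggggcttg
Both lie on the plus strand at chr14:41153715-41154520. C8a-203 lacks an exon of 94 bases at chr4:104865454-104865547 on the minus strand, which C8a-202 contains and which is shown whole.
C8a-202: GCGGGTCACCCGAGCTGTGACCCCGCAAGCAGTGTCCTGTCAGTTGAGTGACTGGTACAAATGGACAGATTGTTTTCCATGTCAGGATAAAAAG

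Abundance is given in TPM, which divide by transcript length and scale each library to the same total, so the sequencing depth is unknown. Srsf1 itself was at 43.6 and 46.4 TPM in the P10 controls and 29.98 and 23.4 TPM in HKO. It was at 23.2 and 20.01 TPM in the 1 month controls and 7.74 and 9.17 TPM in HKO, and at 16.5, 29.7 and 32.3 TPM with GFP and 3.69, 5.34 and 4.16 TPM in acHKO. The knockout libraries were below their controls in all 3 comparisons. The library HKO P10 replicate 2 stood apart. It had Xist at 74.7 TPM, and its Y-linked genes summed to 0.144 TPM. In all other libraries Xist was at most 0.0147 TPM and the Y-linked sum was at least 24.9 TPM. This library alone therefore has the pattern of a female, though the labels give no sex. By these genes sex differs within the HKO pair at P10, and its part in the P10 results was not tested. The same library had 5 erythroid markers that summed to 2184 TPM, against 169 to 279 TPM in the controls. Hepatocyte markers (6 genes) summed to 103744 to 108765 TPM in P10 controls and 57235 to 72821 TPM in HKO, where Ttr and Alb fell. Their sums overlapped at 1 month (57331 to 74557 TPM in controls and 48111 to 65221 TPM in HKO) and in the acute model (36442 to 47476 TPM with GFP and 29747 to 45936 TPM in acHKO). Cholangiocyte markers (5 genes) summed to 56.9 to 69.1 TPM in P10 controls and 107 to 136 TPM in HKO, and to 1.59 to 1.93 TPM in 1 month controls and 19.8 to 34.0 TPM in HKO. In the acute model these were 1.78 to 3.13 TPM with GFP and 1.06 to 2.58 TPM in acHKO. Markers of 9 macrophage genes summed to 13.5 to 17.6 TPM in 1 month controls and 42.0 to 121 TPM in HKO. The acute sums were 4.59 to 11.9 TPM with GFP and 6.37 to 43.7 TPM in acHKO. Their part in the results was not tested. In bulk RNA, fewer cells of a type and less RNA per cell cannot be told apart.

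Genes were tested with limma on log2(TPM + 1), with Benjamini-Hochberg adjustment over all genes tested and a threshold of 0.05, and "fell" or "rose" below means past that threshold. On the log2 scale the median gene itself moved by 0.25 (P10), -0.001 (1 month) and -0.36 (acute). Changes of single genes are therefore given as relative log2 changes, with that median taken off, with the standard error (SE) of the fit. The adjusted p belongs to the change before the median is taken off.

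In acHKO 26 of the 37 clotting and complement genes fell, with the mean of C9, Plg and C8b in acHKO at 18.4%, 18.2% and 20.6% of the GFP mean. At P10 4 of the 37 fell, C8g, Fgg, Plg and Hc, and at 1 month 3 fell, Masp1, F7 and C8b. None rose with limma in these 3 comparisons. The share of all tested genes that fell was 34.8% in the acute comparison, 1.87% at P10 and 1.99% at 1 month, and the shares that rose were 5.93%, 10.8% and 4.87%. Without adjustment, 31, 14 and 13 of the 37 genes were lower at a p under 0.05, and 1 was higher, C6 at 1 month. Of all tested genes 43.1%, 4.62% and 7.04% were lower at that p, and 7.61%, 25.1% and 11.8% were higher. The median relative log2 change of the 37 genes was -0.56 in the acute comparison, -0.71 at P10 and -0.41 at 1 month, with all genes at 0 by construction. All 37 genes passed the filter of a mean of at least 1 TPM in every comparison.

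The calls at P10 and 1 month depended on scaling and on single libraries. After rescaling of the libraries by median ratios 25 genes fell at P10 and 10 at 1 month, beside 7.93% and 5.86% of all genes (9.25% and 9.67% rose). At P10 these were the 4 above with C3, C4b, C8b, Cfi, Mbl1, Mbl2, Masp1, Masp2, F2, F7, F9, F10, F12, F13b, Fga, Fgb, Proc, Serpind1, Serpinf2, Kng1 and Klkb1. At 1 month they were the 3 above with C8a, F9, Fga, Fgb, Plg, Serping1 and Klkb1. In the same comparisons the authors' deposited table called 31 and 13 lower at the same threshold (11.8% and 4.53% of its genes). At P10, Fgg and Plg kept their calls without HKO replicate 1. Without either control, or without HKO replicate 2, the library with Xist, none of the 37 was called. At 1 month, leaving out either control left no gene called lower, leaving out HKO replicate 1 left 1, and leaving out HKO replicate 2 gave 7. Without control replicate 1, C6 was called higher. In the acute comparison, 21 of the 26 fell after median-ratio rescaling and when any 1 library was left out. The other 5, C1ra, C4b, F12, Fgb and Proc, lost the call both ways. The rescaling changed the acute share of all genes called lower from 34.8% to 19.3% and that called higher from 5.93% to 19.6%. Serpinf2 was higher after median-ratio rescaling and in the authors' deposited table, which called 22 of the 37 lower. That table called 16.1% of its genes lower in the acute comparison, and higher 13.4% (P10), 8.97% (1 month) and 16.4% (acute).

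**Figure D1:**
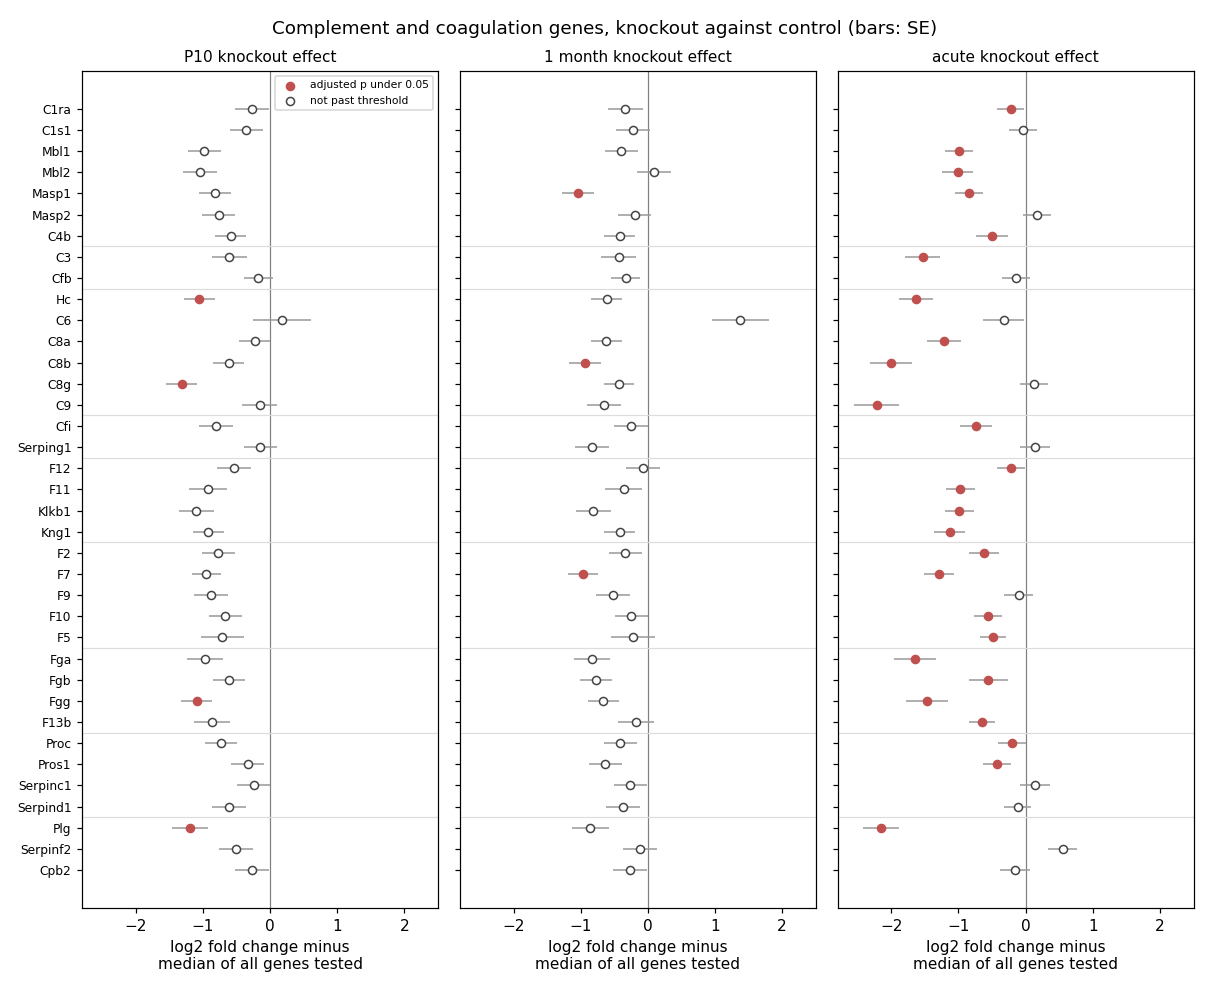
Relative log2 change (horizontal axis, log2 TPM + 1, median of all genes set to 0) of each of the 37 genes in the P10, 1 month and acute comparisons, with bars of 1 standard error; filled points passed the adjusted threshold. Nearly all points lie left of 0: 36 of 37 (P10), 35 (1 month) and 32 (acute), and 26 of the acute points are filled.

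Levels were also compared library by library. The knockout libraries lay wholly below their controls for 27 genes (P10), 24 genes (1 month) and 29 genes (acute). The same was true of 13.4%, 15.6% and 47.1% of all tested genes. They lay wholly above for 3 genes at P10 (C6, Cfb and Serping1), 1 at 1 month (C6) and none in the acute comparison, against 62.6%, 21.1% and 6.61% of all genes. Summed over the 37 genes, the level was 20270 and 19433 TPM in P10 controls and 16036 and 13035 TPM in HKO. At 1 month it was 14793 and 18289 TPM in controls and 9990 and 12890 TPM in HKO. With GFP it was 10843, 17471 and 16617 TPM, and in acHKO 6197, 7977 and 5422 TPM. In each comparison the sums of the knockouts were below those of the controls, with no overlap.

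The genes moved together between libraries of the same group, though less so in the controls of the HKO experiment. There, replicate 1 had the higher value for 26 of the 37 genes at P10, and replicate 2 for 27 at 1 month. Neither these counts nor those that follow were made over all genes, so the pattern may not be particular to the 37. HKO P10 replicate 2 had the lower value of its pair for 34 of the 37 genes. HKO replicate 2 at 1 month had the higher value for 36. GFP replicate 1 was the lowest of 3 for 34 genes, and acHKO replicate 2 was the highest of 3 for 33. Srsf1 was also lowest with GFP in replicate 1 and highest in acHKO in replicate 2. The macrophage gene C1qa was at 12.9 and 5.01 TPM in the 1 month HKO libraries and at 2.96, 0.715 and 5.21 TPM in acHKO, so it was lower in the libraries where the 37 genes were higher. The part of either in these levels was not tested.

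The 7 genes that start the classical and lectin pathways divided in the acute model: Mbl1, Mbl2, Masp1, C4b and C1ra fell, and C1s1 and Masp2 did not pass. Mbl1 and Mbl2 encode the mannose-binding lectins, which recognise sugars on microbes. Mbl2 was at 273, 234 and 416 TPM with GFP and 106, 125 and 113 TPM in acHKO. The groups did not overlap, and the relative log2 change was -1.01 ± 0.23 (SE, adjusted p = 0.000238). Mbl1 was at 74.2, 102 and 110 TPM with GFP and 36.6, 40.9 and 31.5 TPM in acHKO. Its relative change was -0.99 ± 0.21 (SE, adjusted p = 0.000128). At P10 both lectins lay below the controls but missed the threshold, with adjusted p-values of 0.074 for Mbl1 and 0.0659 for Mbl2. After median-ratio rescaling both passed there (0.00427 and 0.00173). At 1 month Mbl2 overlapped, at 209 and 261 TPM in controls and 210 and 294 TPM in HKO.

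Masp1, the protease gene of the lectin complexes, fell at 1 month and in the acute model. It was at 21.4 and 22.0 TPM in 1 month controls and 9.01 and 11.1 TPM in HKO. The relative change was -1.04 ± 0.24 (SE, adjusted p = 0.0222), and without 1 of 3 libraries in turn (either control or HKO replicate 1) the adjusted p was 0.0671 to 0.0949. With GFP it was at 25.4, 30.1 and 36.1 TPM and in acHKO at 11.2, 16.4 and 10.7 TPM. C4b, the C4 gene cut in both pathways, was at 185, 300.2 and 355 TPM with GFP and 147, 169 and 131 TPM in acHKO. Its adjusted p was 0.00969, and it was 0.0723 without GFP replicate 3 and 0.0764 after median-ratio rescaling. C1ra, a C1r gene, was at 66.4% of the GFP mean, with an adjusted p of 0.0268 that became 0.32 after the rescaling. C4b, C1ra and C1s1 have near-identical copies in the mouse (C4a, C1rb and C1s2), so reads may be divided among them and their values are uncertain. Masp2, whose full-length protein cuts C4 and C2, was at 106, 134 and 157 TPM with GFP and 119, 130 and 96.5 TPM in acHKO, which overlap.

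Of the amplification genes, C3 fell in the acute model. C3 encodes the most abundant complement component, and it was at 913, 1317 and 1388 TPM with GFP and 249.8, 463 and 277 TPM in acHKO. The relative log2 change was -1.54 ± 0.26 (SE, adjusted p = 3.81e-05). At P10 C3 was at 2546 and 2445 TPM in controls and 2259 and 1680 TPM in HKO, and the test was not passed (adjusted p = 0.372), but it was after median-ratio rescaling (adjusted p = 0.0422). Cfb, which supplies the protease of the alternative pathway convertase, was at 348, 447 and 464 TPM with GFP and 296, 323 and 264 TPM in acHKO. The groups did not overlap, but the adjusted p was 0.0629. At P10 the Cfb values in HKO, 823 and 838 TPM, lay above the controls at 798 and 783 TPM.

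The 6 terminal genes, which build the membrane pore, included the largest fall in relative log2 change, that of C9 in acHKO. In percent of the GFP mean Plg was slightly lower than C9 (18.2% against 18.4%). In acHKO 4 of the 6 fell (C9, C8b, Hc and C8a). C9, whose protein polymerises into the ring of the pore, was at 365, 342 and 569 TPM with GFP and 58.2, 137 and 39.8 TPM in acHKO. Its relative change of -2.22 ± 0.33 (SE, adjusted p = 2.16e-05) was the largest of the 37. The 3 chains of C8 are encoded by separate genes and did not move alike. C8b was at 134, 160 and 239 TPM with GFP and 26.6, 63.0 and 20.5 TPM in acHKO, a relative change of -2.01 ± 0.32 (SE, adjusted p = 3.27e-05). C8a fell by less, with a relative change of -1.21 ± 0.25 (SE, adjusted p = 0.000154). C8g, which encodes a lipocalin-like chain, was at 140, 170 and 196 TPM with GFP and 135, 167 and 125 TPM in acHKO, which overlap (adjusted p = 0.368).

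At P10 the C8 chain that fell was C8g. It was at 124 and 118 TPM in controls and 57.4 and 57.1 TPM in HKO, a relative change of -1.32 ± 0.23 (SE, adjusted p = 0.0123) and the largest of the 37 at that age. C8a overlapped, at 96.1 and 97.0 TPM in controls and 101 and 95.3 TPM in HKO. C8b was at 51.7 and 52.9 TPM in controls and 44.9 and 36.2 TPM in HKO, and passed only after median-ratio rescaling (adjusted p = 0.017). At 1 month C8b fell, from 116 and 128 TPM in controls to 57.5 and 68.8 TPM in HKO, with a relative change of -0.94 ± 0.23 (SE, adjusted p = 0.0353). That call was lost without either control or HKO replicate 1 (adjusted p = 0.0564 to 0.19).

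Hc, the gene of complement C5, fell at P10 and in the acute model. It was at 274 and 281 TPM in P10 controls and 177 and 143 TPM in HKO, a relative change of -1.05 ± 0.23 (SE, adjusted p = 0.045). Acutely it was at 172, 234 and 302 TPM with GFP and 51.1, 82.9 and 44.0 TPM in acHKO, with a relative change of -1.63 ± 0.25 (SE, adjusted p = 2.14e-05). C6 was the least even of the 37. It was at 16.7 and 4.21 TPM in 1 month controls and 21.4 and 26.7 TPM in HKO, and at 95.6, 126 and 160 TPM with GFP and 110, 103 and 39.8 TPM in acHKO. Neither comparison passed (adjusted p = 0.0891 and 0.0808). Both rest on single libraries. Without control replicate 1 the 1 month adjusted p was 0.000123, and without control replicate 2 it was 0.484. Without acHKO replicate 1 or 2 the acute comparison passed as lower (adjusted p = 0.00273 without replicate 2), and without acHKO replicate 3 the adjusted p was 0.478.

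Of the 2 complement inhibitors, Cfi fell in acHKO and Serping1 did not pass in any knockout comparison with limma before rescaling. Cfi encodes factor I, which inactivates C3b and C4b. It was at 232, 283 and 396 TPM with GFP and 136, 170 and 113 TPM in acHKO (relative change -0.74 ± 0.23, SE, adjusted p = 0.00178). Serping1 encodes C1 inhibitor, which also restrains the contact system. It was at 315 and 381 TPM in 1 month controls and 166 and 226 TPM in HKO (adjusted p = 0.076), and passed after median-ratio rescaling with an adjusted p of 0.003. Its acute values overlapped, at 232, 265 and 360 TPM with GFP and 255, 259 and 211 TPM in acHKO.

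All 4 contact system genes fell in acHKO. Kng1 encodes kininogen, the source of bradykinin. It was at 665, 739 and 871 TPM with GFP and 227, 370 and 227 TPM in acHKO, a relative change of -1.13 ± 0.23 (SE, adjusted p = 0.000144). A near-identical copy, Kng2, makes its value uncertain. Klkb1, the prekallikrein gene, and F11, the factor XI gene that lies 4.7 kb away on chromosome 8, changed by nearly the same amount, -0.99 ± 0.22 and -0.97 ± 0.21 (SE). F11 was at 41.8, 44.5 and 64.8 TPM with GFP and 16.8, 22.3 and 18.1 TPM in acHKO. F12, which starts the contact pathway, had the smallest change: it was at 66.8% of the GFP mean, and its adjusted p of 0.0379 became 0.43 after median-ratio rescaling. At P10 and 1 month none of the 4 passed. Klkb1 was nearest, with adjusted p-values of 0.0588 and 0.103. After median-ratio rescaling Klkb1 (adjusted p = 0.0069), Kng1 (0.00435) and F12 (0.0147) passed as lower at P10, and Klkb1 (0.0229) at 1 month.

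Of the 5 clotting proteases and cofactors, F7, F10, F2 and F5 fell in acHKO and F9 did not pass. F7 encodes factor VII, which with tissue factor starts clotting. It was at 32.4, 40.2 and 46.5 TPM with GFP and 9.09, 15.7 and 11.3 TPM in acHKO, a relative change of -1.30 ± 0.22 (SE, adjusted p = 3.32e-05). F7 also fell at 1 month, from 41.6 and 39.5 TPM in controls to 19.9 and 20.5 TPM in HKO (relative change -0.97 ± 0.22, SE, adjusted p = 0.0221). Without either control its adjusted p was 0.0877 to 0.114. F10, the factor X gene that lies 1.5 kb from F7 on chromosome 8, was at 52.5% of the GFP mean. F2, the prothrombin gene, was at 473, 570 and 674 TPM with GFP and 286, 355 and 231 TPM in acHKO (relative change -0.62 ± 0.23, SE, adjusted p = 0.00307). F5, the cofactor gene, was at 54.9% of the GFP mean. F9, the factor IX gene, was at 76.1, 87.9 and 110 TPM with GFP and 66.4, 75.7 and 54.5 TPM in acHKO (adjusted p = 0.0821).

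The 3 fibrinogen genes lie side by side at chr3:83007724-83015049 (Fgg, plus strand), chr3:83026076-83033627 (Fga, plus strand) and chr3:83040141-83049863 (Fgb, minus strand). Each fibrinogen molecule holds the alpha, beta and gamma chains in equal number. In acHKO all 3 fell, Fga and Fgg by more than Fgb. Fga was at 1289, 3413 and 2102 TPM with GFP and 434, 762 and 419.7 TPM in acHKO, a relative change of -1.65 ± 0.31 (SE, adjusted p = 0.000131). Fgg was at 1190, 3239 and 2040 TPM with GFP and 475, 810 and 452 TPM in acHKO (relative change -1.47 ± 0.31, SE, adjusted p = 0.000324). Fgb was at 535, 1413 and 914 TPM with GFP and 460, 561 and 398 TPM in acHKO. GFP replicate 1 and acHKO replicate 2 overlapped for Fgb, and its adjusted p of 0.0183 became 0.26 after median-ratio rescaling. GFP replicate 2 had the highest level of all 3 chains. F13b, the carrier subunit of the enzyme that cross-links fibrin, was at 49.1% of the GFP mean (adjusted p = 0.0009).

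At P10 Fgg fell, from 2300 and 2092 TPM in controls to 1428 and 1044 TPM in HKO (relative change -1.10 ± 0.23, SE, adjusted p = 0.0378). Without HKO P10 replicate 2 its adjusted p was 0.298. Fga lay below the controls in both HKO libraries, at 1706 and 1191 TPM against 2430 and 2263 TPM, with an adjusted p of 0.101, or 0.0158 after median-ratio rescaling. At 1 month all 3 chains lay below the controls, at 55.7% (Fga), 58.3% (Fgb) and 63.1% (Fgg) of the control mean. None passed (adjusted p = 0.079 to 0.134), and Fga and Fgb passed after median-ratio rescaling (adjusted p = 0.036 and 0.014).

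Of the 4 anticoagulants, Pros1 and Proc fell in acHKO, and Serpinc1 and Serpind1 did not pass. Pros1, the cofactor of protein C, went from 16.8, 18.1 and 24.5 TPM with GFP to 10.1, 12.3 and 10.4 TPM (relative change -0.43 ± 0.20, SE, adjusted p = 0.00611). Proc, the protein C gene, had an adjusted p of 0.0359 but a relative change of only -0.21 ± 0.21 (SE), and lost the call after median-ratio rescaling. Serpinc1 encodes antithrombin, the main inhibitor of thrombin. It was at 968, 1136 and 1353 TPM with GFP and 1047, 1075 and 832 TPM in acHKO, and at 2019 and 1903 TPM in P10 controls and 2121 and 1823 TPM in HKO, and overlapped in both. Serpind1, the heparin cofactor II gene, was at 71.1% of the GFP mean and did not pass (adjusted p = 0.0683).

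Of the 3 fibrinolysis genes, Plg fell in knockouts, and Serpinf2 and Cpb2 did not pass in the knockout comparisons with limma before rescaling. Plg, the plasminogen gene, fell at P10 and in the acute model. It was at 1075 and 1041 TPM in P10 controls and 657 and 461 TPM in HKO, a relative change of -1.19 ± 0.27 (SE, adjusted p = 0.0449). In the acute model it was at 559.9, 682 and 856 TPM with GFP and 93.7, 193 and 94.9 TPM in acHKO. The highest acHKO library lay far below the lowest GFP library, and the relative change was -2.15 ± 0.27 (SE, adjusted p = 3.39e-06, the smallest of the 37). Serpinf2 encodes alpha-2-antiplasmin, the inhibitor of plasmin. It was at 189.9, 218 and 306 TPM with GFP and 277, 264 and 258 TPM in acHKO, which overlap. Its relative change was 0.55 ± 0.22 (SE) with an adjusted p of 0.489, and 0.64 with an adjusted p of 0.0049 after median-ratio rescaling. Cpb2, whose product protects fibrin from lysis, was at 194, 261 and 294 TPM with GFP and 174, 206 and 142 TPM in acHKO (adjusted p = 0.0717).

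**Figure D2:**
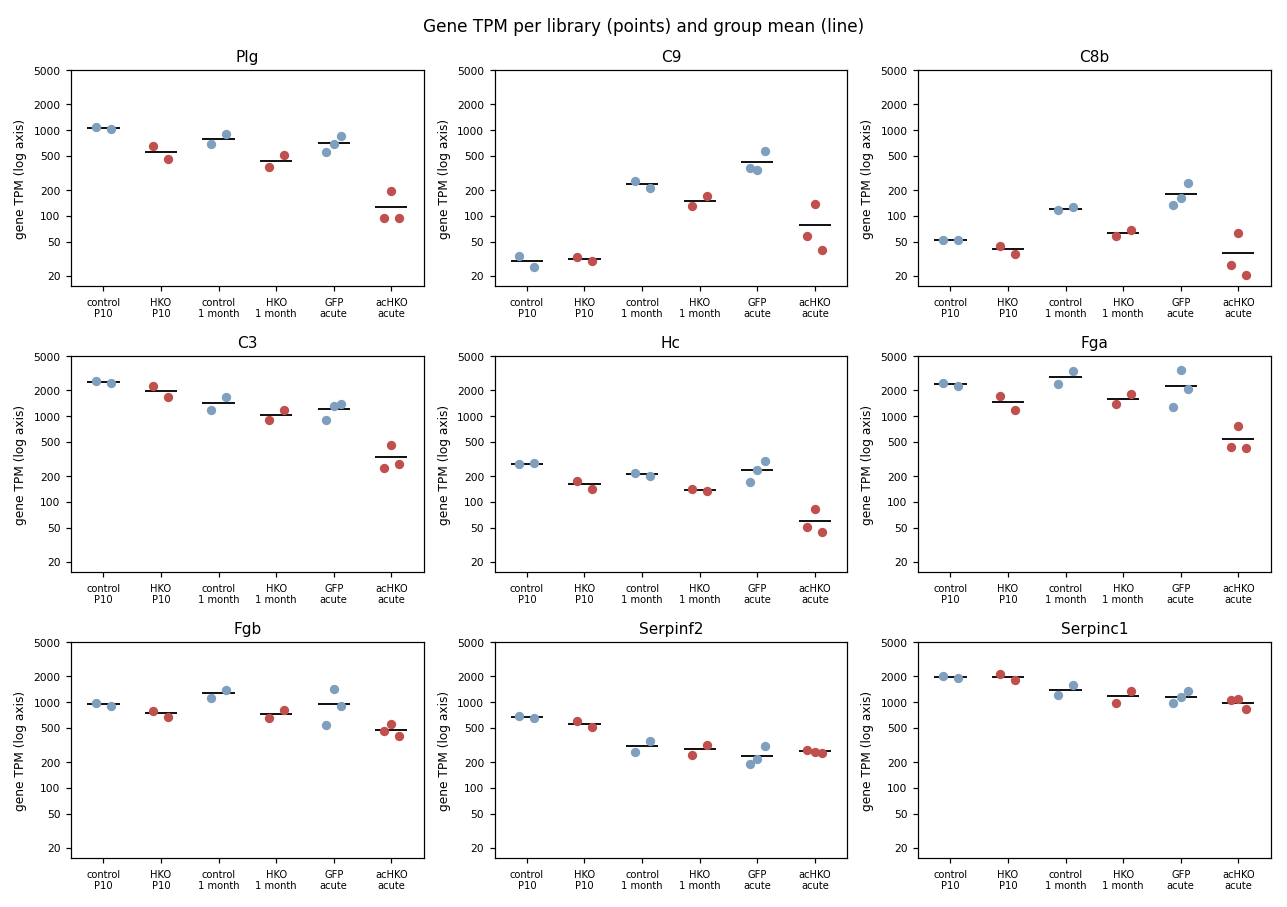
Gene TPM (log axis) of 9 of the genes in each library (points) with group means (lines), in the 6 groups. Plg, C9, C8b, C3, Hc and Fga show acHKO libraries below every GFP library, while the acHKO libraries of Serpinf2 (258 to 277 TPM) and Serpinc1 (832 to 1075 TPM) overlap with their GFP libraries.

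Because some partner genes moved apart, the ratios of their TPM were compared for 8 pairs, chosen after the values had been seen. A ratio within a library does not depend on how the library is scaled, and shows unequal change only. The two-sided exact permutation test cannot go below p = 0.1 with 3 against 3 libraries, or 0.333 with 2 against 2. In the acute model all 8 pairs were fully separated (exact permutation p = 0.1). Fga over Fgb was 2.41, 2.41 and 2.30 with GFP and 0.945, 1.36 and 1.05 in acHKO. At 1 month that ratio overlapped, at 2.11 and 2.42 in controls and 2.10 and 2.24 in HKO. Fga over Fgg lay between 0.914 and 1.23 in all 14 libraries.

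C8a over C8g was 1.53, 1.52 and 1.80 with GFP and 0.667, 0.736 and 0.518 in acHKO. At P10 it moved the other way, from 0.777 and 0.819 in controls to 1.76 and 1.67 in HKO. C8b over C8g likewise was lower in acHKO (0.197, 0.378 and 0.164) than with GFP (0.963, 0.941 and 1.22), and higher in HKO at P10 (0.783 and 0.635) than in controls (0.418 and 0.447). Plg over Serpinf2 was lower in the knockouts at each stage. It was 1.58 and 1.58 in P10 controls and 1.080 and 0.901 in HKO, 2.62 and 2.59 in 1 month controls and 1.52 and 1.61 in HKO, and 2.95, 3.13 and 2.80 with GFP and 0.338, 0.732 and 0.367 in acHKO. F2 over Serpinc1, prothrombin over antithrombin, was 0.488, 0.502 and 0.498 with GFP and 0.273, 0.330 and 0.278 in acHKO. At P10 it was 0.480 and 0.488 in controls and 0.327 and 0.346 in HKO, and at 1 month 0.437 and 0.438 in controls and 0.414 and 0.415 in HKO.

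**Figure D3:**
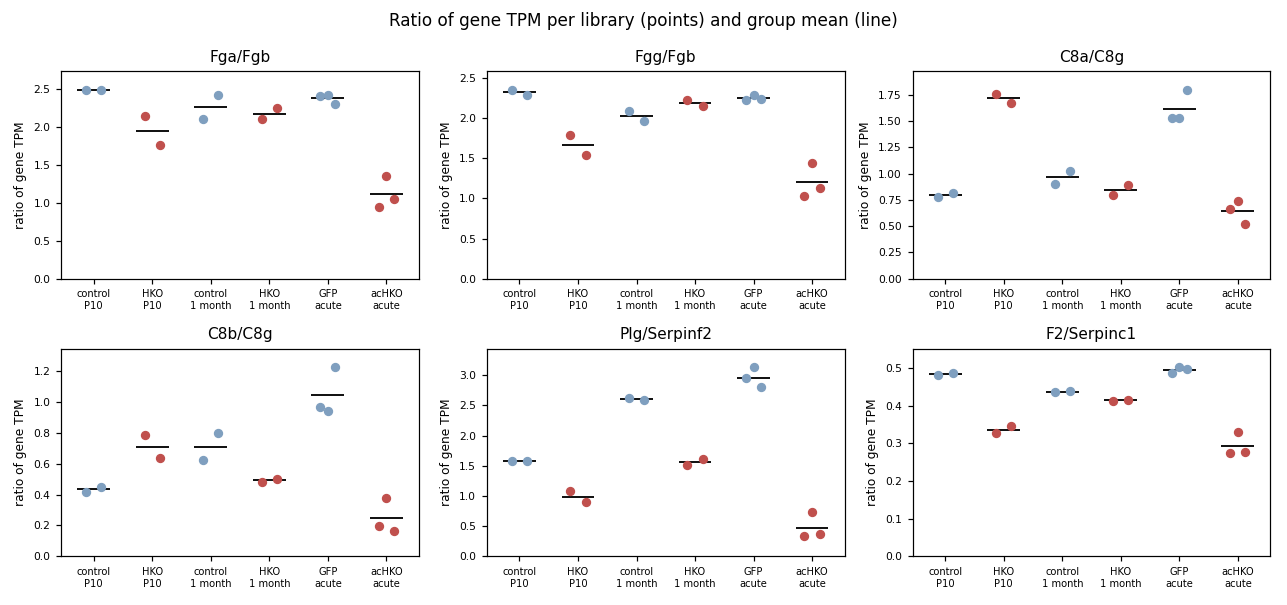
Ratio of gene TPM in each library (points) with group means (lines) for 6 of the 8 pairs, in the 6 groups. Both C8 ratios are above the controls in HKO at P10 and below GFP in acHKO, and Plg over Serpinf2 is below the controls at each stage.

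Srsf1 acts on splicing, and transcript shares within the genes were tested with limma's diffSplice (adjusted p under 0.05 and a share change of at least 10 points). In the acute model 9 of the 17 testable genes changed: Fgg, C8a, Mbl1, Masp2, C1s1, Cfb, F10, Kng1 and Masp1. Of all testable genes 35.5% changed. At P10 and at 1 month none of 18 passed with diffSplice, though 2 had an unadjusted p under 0.05 at each age, while 0.586% and 0.234% of all genes passed. TPM of single forms are estimates that divide shared reads among similar transcripts.

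The largest shift was in Fgg, toward the gamma-prime form whose end is printed above. Fgg-202 made up 31.6%, 30.4% and 27.7% of Fgg with GFP and 72.1%, 63.1% and 66.3% in acHKO (adjusted p = 0.0066). At P10 it made up 14.03% and 15.5% in controls and 25.3% and 30.3% in HKO, and at 1 month 18.8% and 19.6% in controls and 30.4% and 33.7% in HKO. The groups did not overlap at any stage. The usual form lost more in level: Fgg-201 was at 1514 ± 721 TPM (SD, n = 3) with GFP and 194 ± 90.7 TPM (SD, n = 3) in acHKO. Fgg-202 was at 642 ± 312 TPM (SD, n = 3) with GFP and 384 ± 112 TPM (SD, n = 3) in acHKO, which overlap.

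In Masp2 the full protease lost share to the short form. Masp2-201 made up 33.2%, 33.6% and 33.8% with GFP and 9.62%, 13.9% and 14.2% in acHKO, and Masp2-202 62.0%, 59.96% and 59.3% with GFP and 82.8%, 79.9% and 79.6% in acHKO (adjusted p = 0.000323). While the summed level of Masp2 overlapped, Masp2-201 was at 35.3, 44.8 and 53.1 TPM with GFP and 11.4, 18.0 and 13.7 TPM in acHKO. Its share was also lower in HKO than in controls at P10 (38.3% and 36.2% against 43.9% and 46.0%) and at 1 month (32.1% and 29.6% against 41.3% and 40.0%). In Masp1, the MASP-3 form Masp1-203 made up 6.28%, 6.63% and 7.07% with GFP and 16.2%, 14.03% and 21.3% in acHKO (adjusted p = 0.00157). Its level overlapped, at 1.59, 2.00 and 2.56 TPM with GFP and 1.81, 2.30 and 2.28 TPM in acHKO, while Masp1-201 was at 23.4, 27.3 and 32.8 TPM with GFP and 9.13, 13.9 and 8.30 TPM in acHKO.

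C8a-203, without the exon shown above, made up 5.98%, 6.75% and 6.64% of C8a with GFP and 39.4%, 25.1% and 33.9% in acHKO (adjusted p = 3.44e-05). Its level was 12.8, 17.5 and 23.4 TPM with GFP and 35.5, 30.8 and 22.0 TPM in acHKO, which overlap. At P10 it made up 4.88% and 3.78% in controls and 8.00% and 11.5% in HKO. High molecular weight kininogen, Kng1-201, made up 19.6%, 20.9% and 20.7% of Kng1 with GFP and 7.59%, 11.1% and 8.08% in acHKO (adjusted p = 0.00173). At P10 its share overlapped, at 8.90% and 8.72% in controls and 11.4% and 8.37% in HKO.

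The Mbl1 form annotated for decay, Mbl1-201, made up 23.0%, 23.0% and 22.8% with GFP and 48.9%, 42.1% and 48.1% in acHKO (adjusted p = 0.000844). It already made up 39.5% and 39.7% in P10 controls and 48.0% and 47.7% in 1 month controls, and it was at 39.9% and 46.7% in P10 HKO and 48.4% and 46.7% in 1 month HKO. In C1s1, C1s1-204 made up 59.5%, 58.0% and 59.4% with GFP and 75.9%, 74.4% and 77.0% in acHKO. Cfb-208 made up 3.66%, 3.82% and 2.72% of Cfb with GFP and 16.0%, 19.3% and 25.3% in acHKO, but between 8.58% and 24.3% in the albumin-Cre libraries. F10-203, annotated as a partial transcript, made up 10.99%, 12.2% and 17.6% with GFP and at most 0.302% in acHKO, and at most 5.97% in the albumin-Cre libraries.

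**Figure D4:**
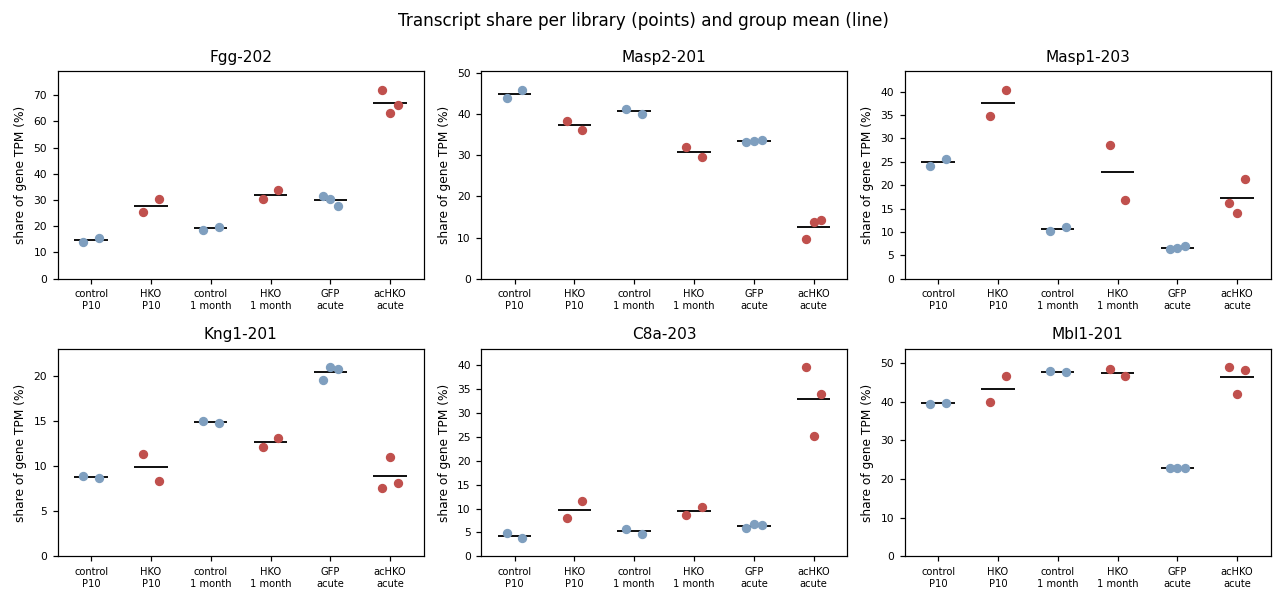
Share of a gene's TPM (percent) carried by single forms in each library (points) with group means (lines), in the 6 groups. Fgg-202 and C8a-203 are above the controls in all 3 knockout comparisons and Masp2-201 is below them, while Mbl1-201 is at 22.8% to 23.0% with GFP and at 39.5% or more in the other groups.

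Shares that separated control from knockout libraries in the same direction in all 3 comparisons were found for 10 of 50 transcripts of these genes, in Fgg, C8a, Masp2, C1s1 and Masp1. Of all 10524 transcripts compared, 9.28% did so. Shares within a gene add to a fixed total, so forms of the same gene are not independent. Counted by gene, 5 of 18 of these genes held such a transcript, against 681 of all 3928 genes. Whether the shifts differ in size between the 3 comparisons was not tested.

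The acute effect was set against the 1 month effect as the difference of 2 changes in 1 fit of 14 libraries. The difference was negative and passed for 5 of the 37 genes, Mbl2, Plg, C3, Hc and C9, and positive for none; 5.82% of all genes passed in that direction and 1.01% in the other. C9 had the largest difference, -1.60 relative to the median gene (adjusted p = 0.0469). With libraries rescaled by median ratios, C3, Hc and C9 lost the call, Mbl1, Mbl2 and Plg passed as lower (3 genes) and Serping1 and Serpinf2 as higher (2 genes), beside 9.54% and 7.38% of all genes. Without adjustment or rescaling 17 genes were lower and none higher at a p under 0.05, beside 21.6% and 3.56% of all genes. No gene of the 5 kept its call when each library was left out in turn. The difference between the 1 month and P10 effects passed for none of the 37 genes with limma, with 1 higher and 1 lower at an unadjusted p under 0.05 (4.16% and 12.2% of all genes). After median-ratio rescaling 3 genes passed as higher (Cfi, Mbl2 and F13b) and 1 as lower (Serping1), beside 3.68% and 2.45% of all genes.

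Controls changed between P10 and 1 month, so each knockout stage was set against a different starting level. Over that age 4 genes rose, C9, Serping1, C8b and C8a, and 11 fell; 6.08% of all genes rose and 38.2% fell. C9 rose from 34.0 and 25.2 TPM to 255 and 214 TPM, a relative change of 3.38 ± 0.26 (SE, adjusted p = 5.65e-06). C8b rose from 51.7 and 52.9 TPM to 116 and 128 TPM (adjusted p = 0.0018), and Serping1 from 134 and 134 TPM to 315 and 381 TPM (adjusted p = 0.00116). F11 fell the most, from 87.7 and 92.1 TPM to 37.8 and 26.6 TPM (relative change -1.04 ± 0.28, SE, adjusted p = 0.0014), and Serpind1 from 482 and 476 TPM to 204 and 209 TPM. Serpinf2, Kng1, F10, Masp1, Cfi, F13b, C3, Cfb and Mbl2 also fell. After median-ratio rescaling 14 genes rose and 9 fell, beside 18.6% and 29% of all genes, with C3 and Cfb losing the call. All 9 macrophage and 6 endothelial markers tested fell over the same age, with macrophage markers at 368 to 387 TPM in P10 controls. Their part in these changes was not tested.

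Other genes of the 2 systems were counted from lists written with earlier results known. In acHKO 5 of 17 further complement genes fell and 4 rose, beside 34.8% and 5.93% of all tested genes. Cfhr2 fell with a relative change of -1.52. Cfd, a factor D gene made mainly in fat, was at 0.0084, 0.013 and 0.0457 TPM with GFP and at 4.95, 8.85 and 3.39 TPM in acHKO. It is among the 4 that rose, but it passed the filter of 1 TPM only through its acHKO libraries. For such a gene a fall could not have been called, and how many others passed in that way was not counted. C1qa, C1qb and Fcna, which macrophages make, rose. Of 9 macrophage markers 6 were tested there and 5 rose, with C1qa and C1qb among those 5. At P10 Clu, the fluid-phase inhibitor clusterin, was at 316 and 301 TPM in controls and 1864 and 1708 TPM in HKO (relative change 2.27, adjusted p = 5.34e-05), and at 1 month it was at 503 and 564 TPM in controls and 501 and 631 TPM in HKO. C4bp also rose at P10 (relative change 0.70). At 1 month C1qa, C1qb and C1qc rose with 7 of 9 macrophage markers, of which they are 3.

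Of 12 further clotting genes tested in the acute model 7 fell. Fgl1, a fibrinogen-like gene, was at 194, 358 and 566 TPM with GFP and 6.78, 46.2 and 14.2 TPM in acHKO (relative change -3.90), and it also fell at 1 month (-1.38). Hrg, which binds plasminogen and heparin, fell at P10 (-1.50) and in acHKO (-1.16). Plaur, the urokinase receptor gene, rose at P10 (relative change 1.30), as did Fgl2 (0.94) and the tissue factor gene F3 (0.77). Tfpi, the tissue factor pathway inhibitor, rose at 1 month from 0.395 and 0.367 TPM to 2.40 and 0.997 TPM. Of 6 genes for the vitamin K cycle and the secretion of factors, 5 fell in acHKO, Lman1 the most (-0.69), and none passed at P10 or 1 month with limma. Of 21 tested genes listed as regulators of liver promoters, 15 fell and 1 rose (Cebpd) in acHKO. Of all tested genes 34.8% fell and 5.93% rose there. The 15 include the receptor genes Il6ra, Il6st and Ghr, whose products do not act on promoters themselves. Hnf4a was at 120, 155 and 114 TPM with GFP and 44.8, 50.9 and 30.2 TPM in acHKO. Foxa2 was at 15.8, 15.9 and 11.6 TPM with GFP and 2.97, 2.58 and 3.72 TPM in acHKO.

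The promoters of the 2 outer fibrinogen genes are shown because all 3 neighbouring genes fell in acHKO, Fga and Fgg by more than Fgb. They are RefSeq stretches of 150 bases on GRCm38.p6 that end just before the start of the gene, with capitals for motif matches.
Fgb: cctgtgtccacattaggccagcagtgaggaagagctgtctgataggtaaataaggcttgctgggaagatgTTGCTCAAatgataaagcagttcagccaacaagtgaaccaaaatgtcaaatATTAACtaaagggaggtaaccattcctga
Fgg: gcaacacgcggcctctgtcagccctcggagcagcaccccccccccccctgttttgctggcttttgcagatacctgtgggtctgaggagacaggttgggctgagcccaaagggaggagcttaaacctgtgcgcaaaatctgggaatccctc
They lie at chr3:83049864-83050013 (Fgb, minus strand) and chr3:83007574-83007723 (Fgg, plus strand). The 5 motifs searched on both strands were a short HNF1 motif (GTTAAT, printed here as ATTAAC on the other strand), a C/EBP site (TTGCNNAA), an HNF4 site (CAAAGTCCA), the HNF4 core within it (AGTCCA) and a TATA box (TATAAA). The Fgb stretch holds 1 each of the HNF1 and C/EBP motifs, and the Fgg stretch holds neither. The Fga stretch, not printed, also holds both, although Fga fell by more than Fgb. Whether these motifs bear on the falls was not tested. Over 250 bases upstream, promoters of 29 of the 37 genes were found in RefSeq. The HNF1 motif was in 7 of the 29 genes and 6.43% of all 32851 promoters, and the C/EBP site in 8 genes and 9.56% of all promoters. The HNF4 site was in 0 genes and 0.384% of all promoters, the HNF4 core in 3 genes and 11.5%, and the TATA box in 2 genes and 12.4%. A match is a description of letters, not of binding.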

How the data were processed

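RNA from purified hepatocytes was sequenced in 14 libraries (stranded and polyA-selected, per the labels). The authors deposited transcript TPM, made with bcl2fastq 2.17.1.14 and kallisto 0.46.0 on GRCm38 (mm10), per the submitters' processing notes. Beside these the authors deposited a DESeq2 table for each knockout comparison. Its columns, per the file headers, are a normalized count averaged over libraries (a signal), the log2 fold change and its error, a test score, and a raw and an adjusted p-value. How gene counts were made for it is not stated. Libraries summed to between 999999.6 and 1000000.24 TPM. TPM keep no depth, so no count model was fitted and no counting error can be given.

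Gene TPM were sums over transcripts. The test was that of limma 3.58.1 (R 4.3.3, eBayes with a trend, two-sided) on log2(TPM + 1), with a pseudocount of 1 TPM, for genes whose mean reached 1 TPM, adjusted over all genes. One fit of 8 libraries gave the P10, 1 month and control age comparisons, a fit of 6 the acute one, and a fit of 14 the difference between acute and 1 month effects. Correlations did not settle whether replicate numbers pair the libraries. No block was used in the tests reported, and counts with a block are given below. Transcript shares were tested with diffSplice for transcripts of at least 1 TPM and 5% of their gene. Both methods were tested on simulated data. Alternatives were a pseudocount of 0.1 TPM, no filter, median-ratio rescaling, quantile normalization, a replicate block, leaving out each library, and the authors' table.

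All 37 genes are named, and those that passed a test are described first. The genes and lists were chosen with earlier results of these data known. Of the 114 transcripts, 113 matched GENCODE M21 in identifier, version and length. Values of some further genes of the 2 systems are not reported here.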

Additional observations from a re-analysis of the deposited data

Results flagged for a closer look

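The acute change was more negative than the 1 month change for 5 genes by a test of the difference itself (limma, adjusted over all genes tested). With limma none of the 5 passed at 1 month before rescaling, and only Plg passed there after median-ratio rescaling (adjusted p = 0.0179). The authors' deposited DESeq2 table called Plg (adjusted p = 0.000824) and C9 (adjusted p = 0.014) lower at 1 month, but not Mbl2, C3 or Hc. The difference, acute minus 1 month and relative to the median gene, was -1.60 ± 0.54 (SE, adjusted p = 0.0469) for C9 and -1.33 ± 0.44 (SE, adjusted p = 0.0353) for Plg. It was -1.13 ± 0.34 (SE, adjusted p = 0.0199) for Mbl2, -1.13 ± 0.40 (SE, adjusted p = 0.0426) for C3 and -1.04 ± 0.38 (SE, adjusted p = 0.0442) for Hc. After median-ratio rescaling C3, Hc and C9 lost the call (adjusted p = 0.0507, 0.0739 and 0.0767). In levels, Mbl2 stood at 107% of the control mean at 1 month and 37.2% of the GFP mean in the acute model, and Plg at 55.3% and 18.2%. C3 stood at 73.6% and 27.4%, Hc at 65.0% and 25.1%, and C9 at 63.7% and 18.4%. The 2 models differ in age, Cre delivery and control genotype, which cannot be told apart. Without control replicate 1 or HKO replicate 2 at 1 month, or without acHKO replicate 1, none of the 5 passed. Leaving out GFP replicate 1 gave 8 genes.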

How the results depend on the processing

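Counts are of the 37 genes. The numbers that fell were 4 (P10), 3 (1 month) and 26 (acute), and 5 differed between acute and 1 month effects. Median-ratio rescaling gave 25 at P10, 10 at 1 month and, acutely, 21 lower and 1 higher. It gave 3 higher and 1 lower for 1 month against P10 effects, 3 lower and 2 higher for acute against 1 month effects, and 14 higher and 9 lower for control age. Quantile normalization gave 23 at P10, 5 lower and 1 higher at 1 month, and 21 lower and 4 higher in the acute model. It gave 9 higher for 1 month against P10 effects, 8 lower and 1 higher for acute against 1 month effects, and 7 higher and 15 lower for control age. Under it the acute change of Proc became 0.0449 (log2), the only called gene whose sign turned under any alternative. A pseudocount of 0.1 TPM gave 2 at P10. With no filter 1 gene fell at 1 month and 0 differed between acute and 1 month effects (limma); 17 had an unadjusted p under 0.05 with the filter. The authors' deposited table gave 31 at P10, 13 at 1 month, and 22 lower and 1 higher in the acute model. The cause of these shifts was not tested.

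Leaving out 1 library gave 0 to 2 at P10 and 0 to 7 lower and 0 to 1 higher at 1 month. It gave 21 to 29 in the acute model, 0 to 1 higher and 0 to 2 lower for 1 month against P10 effects, and 0 to 8 for acute against 1 month effects. For control age 3 to 9 fell and 3 to 4 rose. Transcript usage was called for 0 to 1 gene at 1 month and 8 to 10 in the acute model. With 2 libraries per group, the lone library left is assumed to vary like the other groups.

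Whether replicate numbers pair the libraries was not settled. The deviations of same-numbered libraries had correlations of 0.0129 (P10), 0.277 (1 month) and -0.00348 to 0.278 (acute). Other acute pairs had correlations of -0.301 to 0.072. GFP replicate 1 correlated best with acHKO replicate 2, at only 0.0386. A replicate block gave 14 at P10, 12 lower and 1 higher at 1 month, 23 in the acute model, 1 higher and 1 lower for 1 month against P10 effects, 9 for acute against 1 month effects, and 7 higher and 14 lower for control age. Transcript usage under the block was called for 1 gene (P10), 0 genes (1 month) and 11 genes (acute). With TPM alone, the limit that depth sets on low genes is unknown.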
